A study of Mus musculus with 10 samples.

Results

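The transcriptomes of mouse embryonic stem cells labelled Mga knockout were set directly against those of cells labelled L3mbtl2 knockout. The comparison takes the 3 libraries labelled Mga knockout (Mga-/-) and the 2 labelled L3mbtl2 knockout (L3mbtl2-/-), 5 of the 10 libraries of the series, chosen by genotype label alone. The 3 wild type libraries serve as reference levels, and 2 Pcgf6 knockout libraries enter only the estimate of spread. All cells are of the C57BL/6 strain, with no treatment or time named. The labels do not say how the alleles were made or whether replicates came from separate clones or cultures. The p-values therefore cover the spread among these libraries, and that spread may be technical.

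MGA and L3MBTL2 are subunits of PRC1.6, a variant Polycomb repressive complex that keeps germ cell genes silent in embryonic stem cells. MGA is a large scaffold that carries a T-box domain and a second DNA-binding domain that pairs with MAX at E-box sequences. L3MBTL2 has MBT domains, which bind chromatin, and the complex also holds E2F6, which binds E2F sites. The question is where the loss of one subunit gives another expression profile than the loss of the other.

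The targeted genes were examined before any other. L3mbtl2 (ENSMUSG00000022394, chromosome 15, 81663889 to 81688315, GRCm38) stood at 3.72 and 3.49 FPKM in the L3mbtl2 knockout libraries, at 16, 24.8 and 22.2 FPKM in Mga knockout, and at 19.8 to 20.5 FPKM in wild type. FPKM are fragments scaled to exon length and to the size of the library. Mga (ENSMUSG00000033943, chromosome 2, 119897228 to 119969581) gave 8.03, 19.6 and 11.2 FPKM in replicates 1, 2 and 3 of its labelled knockout, at 21.6 and 21.5 FPKM in L3mbtl2 knockout, and at 17.1 to 19.7 FPKM in wild type. The library labelled Mga knockout replicate 2 thus held Mga transcript at wild type levels, which its label would not lead one to expect. Replicates 1 and 3 kept part of the transcript. The transcript level alone does not give the genotype of replicate 2, which was not tested. For Tex12 that library stood with replicates 1 and 3, at 146 FPKM beside 134 and 149 FPKM, while for other genes, given below, it did not. Values per gene sum all exons, so a deleted exon cannot be seen. The Mga difference was -0.83 ± 0.30 on the log2 scale (SE) and did not pass (limma, adjusted p = 0.077). Without that library it was -1.17 (adjusted p = 0.000822). Counts below are therefore also given without it.

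Depth was 23 to 24.8 in units of 1e6 reads in the 5 knockout libraries. The libraries labelled Mga knockout varied more among themselves, with a median standard deviation per gene of 0.338 on the log2 scale against 0.064 in L3mbtl2 knockout and 0.086 in wild type. Over genes, not independent of each other, their pairs correlated at 0.916 to 0.947, the 2 L3mbtl2 knockout libraries at 0.979, and pairs across the genotypes at 0.894 to 0.912. Stem cell markers were present in all 5 libraries: Pou5f1 stood at 131 to 181 FPKM, Sox2 at 195 to 303 FPKM and Nanog at 417 to 601 FPKM.

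Of 15731 genes tested, 3591 (22.8%) differed between the knockouts (limma on log2(FPKM + 0.1) with all 10 libraries in the fit, Benjamini-Hochberg adjusted p under 0.05). Higher in Mga knockout were 1707 (10.9%) and higher in L3mbtl2 knockout 1884 (12%). Chromosomes 1, 11 and 16 were shifted as a whole, with median differences of -0.47, -0.34 and -0.22. They were picked, Y aside, from these same differences by a median beyond 0.2 in size, and all lean to L3mbtl2 knockout. Without them 1513 genes were higher in Mga knockout and 1043 in L3mbtl2 knockout, a turn that the choice itself favours. The difference was at least 2-fold for 795 and 677 of the 1707 and 1884, and the median over all genes tested was -0.01. This count depends on which libraries set the spread. With only the 5 knockout libraries in the fit, 593 genes (3.77%) passed, of which 587 were also called with all 10. Without the library labelled Mga knockout replicate 2, 5672 passed, 2928 (18.6%) higher in Mga knockout and 2744 (17.4%) in L3mbtl2 knockout, and 3489 of the 3591 calls were kept in the same direction. These shares are the background of the list counts that follow: 10.9% and 12% with all libraries, and 18.6% and 17.4% without that one. For counts of the 5-library fit, taken in either direction, the background is 3.77%. Tests on simulated data did not settle the error rate of the fit with all 10 libraries. Genes called under both fits lead below, and where a named call is lost with the 5 libraries alone limma's adjusted p under that fit follows the main one.

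**Figure D1:**
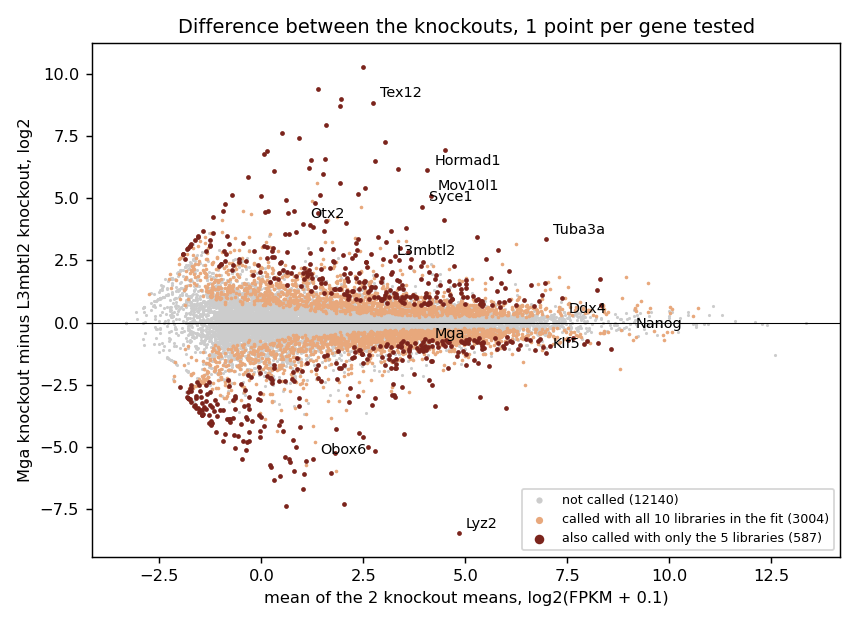
Difference between the knockouts for each gene tested (y axis, Mga knockout minus L3mbtl2 knockout, log2) against the mean of the knockout means (x axis, log2(FPKM + 0.1)). The 587 genes called under both fits (dark points) include Tex12, Hormad1 and Syce1 at the top and Lyz2 and Obox6 at the bottom, while Ddx4 lies close to 0.

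Of 34 genes tested for the synaptonemal complex, which holds paired meiotic chromosomes together, its cohesins and recombination, 13 were higher in Mga knockout and 1 in L3mbtl2 knockout. Tex12, a component of its central element (ENSMUSG00000032065, chromosome 9, 50556819 to 50561325), stood at 134, 146 and 149 FPKM in Mga knockout and at 0.205 and 0.211 FPKM in L3mbtl2 knockout, with 0.121 to 0.609 FPKM in wild type. The L3mbtl2 knockout libraries overlapped wild type, and all 3 Mga knockout libraries lay far above both. The difference was 8.86 ± 0.39 (adjusted p = 5.17e-06). Hormad1, a chromosome axis protein (chromosome 3, 95559677 to 95587671), stood at 123, 167 and 134 FPKM against 1.85 and 1.93 FPKM, with 2.99 to 4.69 FPKM in wild type (difference 6.14 ± 0.21, adjusted p = 2.29e-06). Syce1, another central element gene (chromosome 7, 140777229 to 140787852), stood at 65.7, 85.1 and 80.2 FPKM against 3.05 and 2.82 FPKM, with 3.66 to 3.83 FPKM in wild type (difference 4.66 ± 0.11, adjusted p = 5.16e-07). For both genes the L3mbtl2 knockout libraries lay just below wild type. Rnf212, a crossover factor (chromosome 5, 108729290 to 108774982), stood at 22.9, 21.9 and 27.1 FPKM in Mga knockout. It gave 3 reads in the 2 L3mbtl2 knockout libraries together, a ratio of read rates of 525 (exact 95% interval 179 to 2550, counting error only).

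Among cohesin subunits of meiosis, Stag3 stood at 37.6, 75.8 and 64.4 FPKM in Mga knockout and at 12.3 and 11.2 FPKM in L3mbtl2 knockout (2.26 ± 0.25, adjusted p = 0.000518). Smc1b stood at 36, 20.7 and 37.1 FPKM against 5.14 and 5.09 FPKM (2.54 ± 0.28, adjusted p = 0.000576). Wild type libraries lay below both knockouts for these genes, at 2.71 to 2.81 FPKM for Stag3 and 0.419 to 0.76 FPKM for Smc1b, so here the knockouts shared a direction and differed in size. Mei1, needed for meiotic double-strand breaks, averaged 17.6 ± 11.1 FPKM in Mga knockout (SD, n = 3) against 0.329 and 0.312 FPKM (5.13 ± 0.55, adjusted p = 0.000482). Psmc3ip, a recombination cofactor, was the 1 member of the list higher in L3mbtl2 knockout, at 23.2 and 20.9 FPKM against 10.7, 11.5 and 10.4 FPKM (-1.01 ± 0.09, adjusted p = 0.000183).

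The lateral and transverse elements divided the libraries labelled Mga knockout. Sycp1 stood at 85.9, 6.18 and 61.5 FPKM, and the second of these, from the library with wild type Mga levels, lay at the L3mbtl2 knockout levels of 5.92 and 6.41 FPKM. The Sycp1 difference did not pass (2.36 ± 0.91, adjusted p = 0.0978). Without that library it was 3.54 (adjusted p = 1.79e-05). Sycp3 stood at 22.2, 3.56 and 29.4 FPKM against 1.13 and 1.24 FPKM (3.38 ± 0.73, limma's adjusted p = 0.0122 and, with the 5 libraries alone, 0.11).

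The 13 and 1 called members are 38.2% and 2.94% of this list, against 10.9% and 12% of all genes, and the median difference was 0.95, against -0.01. With the 5 libraries alone 9 passed, and leaving out the library labelled Mga knockout replicate 2 the counts were 23 and 1. The list was assembled with earlier results of these libraries known, as were the others here.

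In the piRNA pathway, which silences transposons in germ cells, single genes differed strongly while others did not. Mov10l1, the helicase that starts piRNA processing (chromosome 15, 88982909 to 89055152), stood at 83.5, 96.3 and 135 FPKM in Mga knockout, at 2.81 and 3 FPKM in L3mbtl2 knockout and at 0.653 to 1.3 FPKM in wild type (5.10 ± 0.26, adjusted p = 1.27e-05). Tdrd9, another helicase of the pathway, stood at 50.6, 13.7 and 60.6 FPKM against 0.684 and 0.762 FPKM (5.41 ± 0.53, adjusted p = 0.000327). Gpat2, a mitochondrial outer membrane protein of the pathway, stood at 20.9, 41.2 and 36.9 FPKM against 4.33 and 4.31 FPKM (2.84 ± 0.26, adjusted p = 0.000212). Fkbp6, a cochaperone of the pathway, spread widely within Mga knockout, with 121 ± 89.3 FPKM (SD, n = 3), lowest in replicate 1 and all above the 0.288 and 0.619 FPKM of L3mbtl2 knockout (7.29 ± 0.98, adjusted p = 0.00139). Piwil4, a PIWI protein, was higher in L3mbtl2 knockout at low levels, 0.61 and 0.854 FPKM against 0.15, 0.0153 and 0.0309 FPKM (-2.40 ± 0.40, limma's adjusted p = 0.00392 and, with the 5 libraries alone, 0.0742). Of 22 tested, 6 were higher in Mga knockout (27.3%, against 10.9% of all genes) and 4 in L3mbtl2 knockout (18.2%, against 12%), with a median of 0.16. The 5-library fit called 4, and leaving out the library labelled Mga knockout replicate 2 the counts were 10 and 4, or 45.5% and 18.2% against 18.6% and 17.4% of all genes.

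Several germ cell genes stood far above wild type in both knockouts and did not pass between them. Ddx4, a germ cell RNA helicase, stood at 168, 170 and 181 FPKM in Mga knockout and at 158 and 153 FPKM in L3mbtl2 knockout, with 9.21 to 10.2 FPKM in wild type (0.15 ± 0.07, adjusted p = 0.179). Zcwpw1, a reader of histone marks at recombination sites, stood at 36.1, 50 and 45.3 FPKM against 44.4 and 43.5 FPKM, with 2.38 to 2.65 FPKM in wild type (-0.02 ± 0.13, adjusted p = 0.95). For Mael, Tex101 and Taf7l the library with wild type Mga levels was the lowest of the 5. Mael, a piRNA factor, stood at 230, 124 and 230 FPKM against 167 and 164 FPKM (0.17 ± 0.24, adjusted p = 0.648). Tex101, a germ cell surface protein, stood at 559, 53.4 and 551 FPKM against 319 and 329 FPKM (-0.35 ± 0.87, adjusted p = 0.808). Without that library both were called higher in Mga knockout, Mael by 0.47 (adjusted p = 0.00505) and Tex101 by 0.78 (adjusted p = 0.00965). Taf7l, a testis form of a TFIID subunit, stood at 147, 24.5 and 143 FPKM against 126 and 126 FPKM (-0.65 ± 0.66, adjusted p = 0.518). These genes were chosen after their values were seen.

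Among germ cell regulators and testis genes, Slc25a31, the ADP/ATP carrier of the testis, stood at 73.4, 89.2 and 97.3 FPKM in Mga knockout and at 1.25 and 0.918 FPKM in L3mbtl2 knockout (6.20 ± 0.19, adjusted p = 1.17e-06). Tuba3a, a testis alpha-tubulin, stood at 389, 383 and 430 FPKM against 37.5 and 40.6 FPKM, with 6.93 to 9.32 FPKM in wild type (3.36 ± 0.12, adjusted p = 2.3e-06). Its near-identical copy Tuba3b stood at 112, 15.8 and 99.3 FPKM against 0.522 and 0.514 FPKM, and the 2 genes can share reads. Dazl, which binds RNA in germ cells, stood at 312, 138 and 262 FPKM against 70.9 and 73.6 FPKM, with 0.776 to 1.37 FPKM in wild type (1.63 ± 0.33, limma's adjusted p = 0.00859 and, with the 5 libraries alone, 0.0734). Of 38 tested, 9 were higher in Mga knockout (23.7%, against 10.9% of all genes) and 0 in L3mbtl2 knockout, with a median of 0.42. Against the wild type mean, the list median was 2.57, 0.94 and 2.91 in Mga knockout replicates 1 to 3. It was 1.56 and 1.53 in L3mbtl2 knockout, above the library labelled Mga knockout replicate 2. The 5-library fit called 3, and leaving out the library labelled Mga knockout replicate 2 the counts were 19 and 2.

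**Figure D2:**
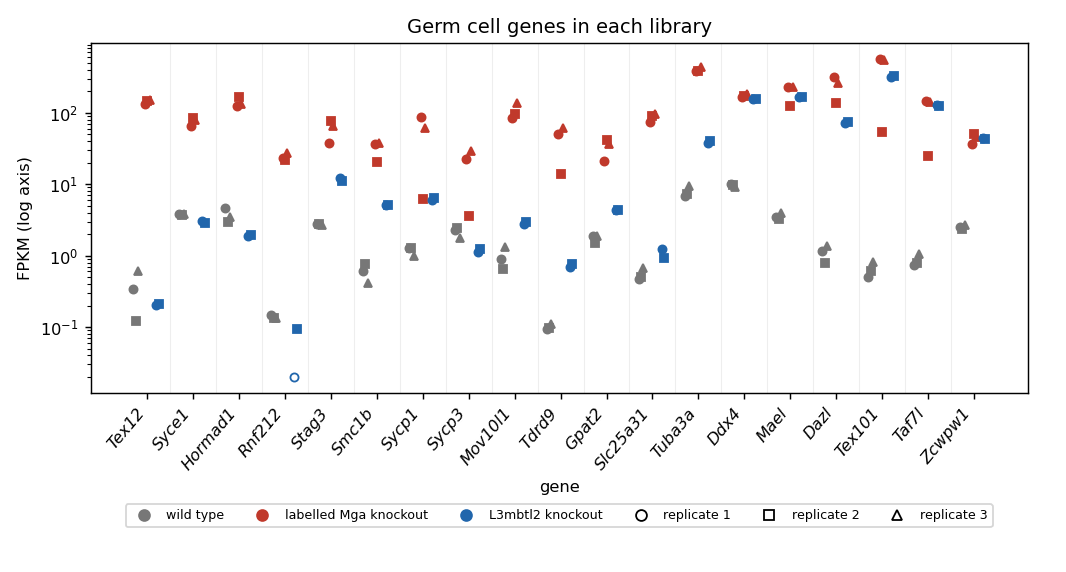
FPKM (log axis) of 19 germ cell genes in each wild type, Mga knockout and L3mbtl2 knockout library, with replicates marked by shape and the open symbol marking a value of 0. Tex12, Hormad1, Rnf212 and Slc25a31 were high in Mga knockout and low in the other groups, Ddx4 and Zcwpw1 were at like levels in both knockouts, and replicate 2 of Mga knockout was low for Sycp1, Sycp3, Tex101 and Taf7l.

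The promoters of the leading gene pairs in each direction are shown because the subunits bind defined motifs. They are the first 2 genes in each direction, among those with the largest differences, that have an entry in the RefSeq promoter table (GRCm38.p6), and run from 250 bases before to 50 after the start. Capitals mark the E-box CACGTG and the E2F motif GGCGGGA or TCCCGCC. The T-box motif AGGTGTGA or TCACACCT was also searched and none of the 4 windows held it.
Tex12 (chr9:50561219-50561518, minus strand): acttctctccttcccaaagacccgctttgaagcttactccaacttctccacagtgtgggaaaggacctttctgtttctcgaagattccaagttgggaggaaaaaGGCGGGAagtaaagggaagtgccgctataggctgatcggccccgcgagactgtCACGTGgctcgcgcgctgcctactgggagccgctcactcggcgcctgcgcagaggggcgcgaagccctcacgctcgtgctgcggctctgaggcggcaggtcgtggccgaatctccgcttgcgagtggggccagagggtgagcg
Rnf212 (chr5:108774978-108775277, minus strand): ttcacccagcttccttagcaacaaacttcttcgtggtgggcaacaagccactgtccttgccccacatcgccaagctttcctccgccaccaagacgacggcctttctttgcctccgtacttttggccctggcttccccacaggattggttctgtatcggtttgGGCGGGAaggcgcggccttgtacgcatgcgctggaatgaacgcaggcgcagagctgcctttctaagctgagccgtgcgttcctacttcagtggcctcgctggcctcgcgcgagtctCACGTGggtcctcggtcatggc
Lyz2 (chr10:117282223-117282522, minus strand): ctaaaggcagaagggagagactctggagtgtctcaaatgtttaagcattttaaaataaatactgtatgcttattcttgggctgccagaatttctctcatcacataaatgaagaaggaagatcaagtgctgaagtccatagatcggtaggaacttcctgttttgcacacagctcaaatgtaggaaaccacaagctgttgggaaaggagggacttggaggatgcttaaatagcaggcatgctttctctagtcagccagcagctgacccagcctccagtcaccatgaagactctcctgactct
Pf4 (chr5:90772185-90772484, plus strand): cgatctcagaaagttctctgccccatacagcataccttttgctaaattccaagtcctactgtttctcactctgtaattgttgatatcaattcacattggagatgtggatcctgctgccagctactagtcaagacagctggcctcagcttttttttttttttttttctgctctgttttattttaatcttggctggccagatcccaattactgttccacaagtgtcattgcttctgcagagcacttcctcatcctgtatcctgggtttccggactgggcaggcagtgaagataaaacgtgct
The windows of Tex12 and Rnf212, higher in Mga knockout, each hold an E-box and an E2F motif, and those of Lyz2 and Pf4, higher in L3mbtl2 knockout, hold neither.

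Over all 13842 windows of tested genes, 9.98% hold the E-box, 20.1% the E2F motif and 0.852% the T-box motif. The shares were 11.7%, 21% and 1.35% for genes higher in Mga knockout and 8.64%, 18.8% and 0.334% for genes higher in L3mbtl2 knockout. In 3 germ cell lists, added to this count after the values were seen, the E-box share was 31.4% of 35 windows for synaptonemal complex, cohesin and recombination genes, 40.7% of 27 for piRNA genes and 13.9% of 36 for germ cell regulators. The E2F share was 28.6%, 11.1% and 22.2% in the same lists, so in piRNA genes it lay below the 20.1% of all windows. It was also lower among genes that differed at least 2-fold, also added later, at 17.4% for those higher in Mga knockout and 11.7% for those higher in L3mbtl2 knockout, where the E-box shares were 12.9% and 6.02% and the T-box shares 2.71% and 0.365%. The T-box share was 5.71%, 0% and 0% in the 3 lists. Of the 15 largest differences higher in Mga knockout, 9 had an entry, and 6 of those held an E-box (Fkbp6, Hormad1, Rnf212, Slc25a31, Tdrd9 and Tex12). An E2F motif was in 5 of the 9 and a T-box motif in 0. Of the 15 largest in the other direction, 11 had an entry and 0 held an E-box, an E2F motif or a T-box motif. The 11 include the macrophage genes Lyz2, Ccl6 and Pf4 and the Y-linked genes Ddx3y and Eif2s3y. Over so few genes, 0 with an E-box cannot be told apart from the 9.98% of all windows. A match is a description of the letters, not a bound site.

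Processed pseudogenes of ribosomal and other genes were among the largest differences. Rpl34-ps1 stood at 57.1, 87 and 62.8 FPKM in Mga knockout with no reads in L3mbtl2 knockout, at least 380-fold higher (floor of 3 reads over the group). Tdgf1-ps1 stood at 10.5, 10.5 and 12 FPKM with no reads, at least 88.4-fold higher, and Rpl15-ps2 at 11.4, 11.7 and 13.2 FPKM with no reads, at least 115-fold higher. Rps3a2 stood at 211, 291 and 244 FPKM against 1.44 and 2.52 FPKM (6.94 ± 0.31, adjusted p = 5.8e-06). Such copies can share reads with their parent genes, so their values are uncertain. Among the parents, Rpl34 stood at 109, 129 and 107 FPKM against 103 and 113 FPKM, and Tdgf1 at 366, 382 and 459 FPKM against 412 and 409 FPKM, and neither passed (limma, adjusted p = 0.52 and 0.82). Rps3a1, the parent of Rps3a2, was lower in Mga knockout, at 678, 885 and 748 FPKM against 1115 and 1065 FPKM (-0.51 ± 0.11, limma's adjusted p = 0.011 and, with the 5 libraries alone, 0.15). In wild type and Pcgf6 knockout these pseudogenes stood at 3.32 FPKM or less, and all 3 libraries labelled Mga knockout, replicate 2 included, were high.

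The 2-cell-like list holds genes of a transient state seen in few stem cells. Of 18 tested, 9 were higher in Mga knockout and 0 in L3mbtl2 knockout, with a median of 2.32, but the 5-library fit called 0. Leaving out the library labelled Mga knockout replicate 2 the counts were 11 and 0. Zscan4f, a marker of that state, stood at 1.64, 2.01 and 10.1 FPKM against 0.139 and 0.232 FPKM, with no reads in wild type (3.57 ± 0.65, limma's adjusted p = 0.00589 and, with the 5 libraries alone, 0.0831). Replicate 3 held most of the signal, and members of the Zscan4 family can share reads. A further list took reproductive genes of chromosome X, but it also holds Pramel7 of chromosome 2. In it Rhox5, a homeobox gene, stood at 340, 85.6 and 315 FPKM against 22.9 and 23.1 FPKM. The Rhox5 difference was 3.18 ± 0.50 (limma's adjusted p = 0.00287 and, with the 5 libraries alone, 0.0598). Of 23 in that list, 2 were higher in Mga knockout and 4 in L3mbtl2 knockout, which is 8.7% and 17.4% against 10.9% and 12% of all genes, and the 5-library fit called 0. Leaving out the library labelled Mga knockout replicate 2 gave 7 and 4. These are 30.4% and 17.4% of the list, against 18.6% and 17.4% of all genes.

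Pluripotency regulators differed gene by gene. Klf5, a naive-state transcription factor (chromosome 14, 99298691 to 99315036), stood at 200 and 185 FPKM in L3mbtl2 knockout, at 93.8, 82.4 and 69.9 FPKM in Mga knockout and at 38.2 to 40.1 FPKM in wild type (-1.24 ± 0.12, adjusted p = 0.000296). Gbx2, another naive factor, stood at 17.4 and 18.8 FPKM against 6.91, 4.27 and 4.24 FPKM (-1.83 ± 0.21, adjusted p = 0.000679), and it lies on chromosome 1, whose genes were shifted as a whole, as given further on. Dppa2, an early embryo chromatin factor, stood at 114 and 111 FPKM against 52.5, 56.9 and 52.8 FPKM, with wild type between them at 92.1 to 98.3 FPKM (-1.06 ± 0.07, adjusted p = 4.21e-05). Zfp42, a naive marker, went the other way, at 153, 218 and 154 FPKM in Mga knockout against 79.5 and 80.1 FPKM (1.11 ± 0.14, adjusted p = 0.00101). Nanog was higher in L3mbtl2 knockout by a smaller step, 601 and 599 FPKM against 417, 444 and 463 FPKM (-0.44 ± 0.07, limma's adjusted p = 0.00251 and, with the 5 libraries alone, 0.107). Of 37 tested, 3 were higher in Mga knockout and 9 in L3mbtl2 knockout, with a median of -0.18, and the 5-library fit called 4. Leaving out the library labelled Mga knockout replicate 2 gave 3 and 15.

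Otx2, a factor of the primed epiblast (chromosome 14, 48657677 to 48673819), lay on opposite sides of wild type. It stood at 5.7, 9.28 and 9.15 FPKM in Mga knockout, at 0.397 and 0.409 FPKM in L3mbtl2 knockout and at 1.05 to 1.17 FPKM in wild type (3.98 ± 0.22, adjusted p = 1.71e-05). Obox6, an oocyte homeobox gene (chromosome 7, 15833241 to 15839678), was high in L3mbtl2 knockout, at 15.9 and 15.8 FPKM against 0.15, 0.277 and 0.372 FPKM, with 0.364 to 0.405 FPKM in wild type (-5.49 ± 0.29, adjusted p = 1.27e-05). Mid1, a ubiquitin ligase gene of chromosome X, stood at 43.1, 37.7 and 15.9 FPKM in Mga knockout against 0.733 and 0.73 FPKM, with 13.7 to 14.5 FPKM in wild type (5.16 ± 0.35, adjusted p = 5.14e-05). Among the 2199 called genes with at least 5 FPKM in the higher knockout and a gene name, 207 had Mga knockout above and L3mbtl2 knockout below all wild type libraries, and 242 the reverse. Over all 3591 called genes these counts were 329 and 414. They were not taken over all genes tested, so no background share stands beside them. The median of chromosome 11 lay below wild type in Mga knockout and above it in L3mbtl2 knockout, as given further on. Its part in these counts was not tested.

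Of 38 keratin and epithelial junction genes tested, 20 were higher in Mga knockout, 3 were higher in L3mbtl2 knockout and the others did not pass, with a median of 0.69, and the 5-library fit called 7. Cldn4, a tight junction protein, stood at 23.3, 43.8 and 24.1 FPKM in Mga knockout, at 3.15 and 3.97 FPKM in L3mbtl2 knockout and at 73.4 to 78.7 FPKM in wild type (3.00 ± 0.25, adjusted p = 0.000131). Epcam, an epithelial adhesion molecule, stood at 49.7, 41.9 and 40.3 FPKM against 21.3 and 21 FPKM, with 133 to 135 FPKM in wild type (1.05 ± 0.09, adjusted p = 0.000184). Both knockouts lay below wild type for Cldn4 and Epcam, L3mbtl2 knockout further. Grhl3, an epithelial transcription factor, was instead above wild type in Mga knockout (23.9, 14.5 and 17.7 FPKM) and below it in L3mbtl2 knockout (4.15 and 4.58 FPKM; wild type 7.48 to 7.96 FPKM), a difference of 2.04 ± 0.18 (adjusted p = 0.000206). The counts were 23 and 5 when the library labelled Mga knockout replicate 2 was left out.

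Regulators of extraembryonic and embryonic lineages followed at low levels. Tfap2a, a transcription factor of trophoblast and ectoderm, stood at 2.03, 1.78 and 2.19 FPKM in Mga knockout against 0.325 and 0.321 FPKM (2.31 ± 0.22, adjusted p = 0.000254), and Gata2 at 3.41, 1.92 and 3.44 FPKM against 0.577 and 0.587 FPKM (2.10 ± 0.28, adjusted p = 0.00122). Sfmbt2, an imprinted Polycomb-related gene of the trophoblast, was below wild type in both, at 2.8, 2.73 and 3.57 FPKM against 0.54 and 0.442 FPKM (2.40 ± 0.16, adjusted p = 5.14e-05). Of 20 trophoblast genes 6 were higher in Mga knockout and 1 in L3mbtl2 knockout (3 in the 5-library fit, and 10 and 1 leaving out the library labelled Mga knockout replicate 2). Of 19 mesoderm and primitive streak genes 8 and 0 were (1 in the 5-library fit, 9 and 0 leaving out that library), and of 20 Hox genes 6 and 0 (1 in the 5-library fit, 9 and 0 leaving out that library), led by Hoxc13 at 1.83, 3.41 and 3.84 FPKM against 0.257 and 0.247 FPKM (3.09 ± 0.36, adjusted p = 0.000698). Of 19 interferon response genes 8 and 0 were (10 and 0 leaving out that library), and Xaf1, at 6.32, 4.15 and 3.88 FPKM against 1.28 and 1.4 FPKM, was the 1 also called with the 5 libraries (1.73 ± 0.22, adjusted p = 0.000986). The shares called higher in Mga knockout were 30%, 42.1%, 30% and 42.1% for trophoblast, mesoderm, Hox and interferon genes, against 10.9% of all genes. With the 5 libraries alone the shares called in either direction were 15%, 5.26%, 5% and 5.26%, against 3.77% of all genes. All but the first rest on 1 gene each and lay near that background. Gata2 counts in both the trophoblast and the mesoderm list.

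Most glycolysis and ATF4 genes called between the knockouts were higher in Mga knockout. Ldha, lactate dehydrogenase, stood at 347, 568 and 514 FPKM against 187 and 191 FPKM, with 417 to 435 FPKM in wild type (1.30 ± 0.18, adjusted p = 0.00143). Egln3, an oxygen-sensing hydroxylase, stood at 9.92, 13 and 7.22 FPKM against 3.29 and 2.85 FPKM, with 20.2 to 24.8 FPKM in wild type (1.64 ± 0.21, adjusted p = 0.00119). Of 28 glycolysis and hypoxia genes 13 were higher in Mga knockout and 1 in L3mbtl2 knockout, with a median of 0.65, and the 5-library fit called 3. Leaving out the library labelled Mga knockout replicate 2 gave 12 and 1. Asns, asparagine synthetase and a target of ATF4, stood at 120, 200 and 175 FPKM against 57.8 and 56.2 FPKM (adjusted p = 0.000764), and 9 of 22 genes of that list were higher in Mga knockout and 1 in L3mbtl2 knockout (3 in the 5-library fit, 13 and 2 leaving out that library). Of 34 ribosome biogenesis and MYC target genes 2 were higher in Mga knockout and 10 in L3mbtl2 knockout (2 in the 5-library fit, and 2 and 16 leaving out the library labelled Mga knockout replicate 2), among them Ncl, nucleolin, at 325 and 324 FPKM against 200, 176 and 161 FPKM (-0.86 ± 0.09, adjusted p = 0.000458). These counts are 5.88% and 29.4% of the list with all libraries, against 10.9% and 12% of all genes. The 4 members with the smallest adjusted p lie on shifted chromosomes, Ncl and Wdr12 on 1 and Npm1 and Ftsj3 on 11. On chromosomes 1 and 11, 31.5% and 30.4% of all genes were called higher in L3mbtl2 knockout. The part of these chromosomes in the list counts was not tested. Mycn, the MYC paralogue, was higher in Mga knockout, at 46.6, 49.3 and 43.9 FPKM against 22.7 and 23.4 FPKM, both below wild type at 81.6 to 85.2 FPKM (1.01 ± 0.07, adjusted p = 6.11e-05).

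Among 17 PRC1.6 subunit genes, 4 were higher in Mga knockout, L3mbtl2 among them, and 3 in L3mbtl2 knockout, with a median of 0.00. Leaving out the library labelled Mga knockout replicate 2 gave 3 and 5, and the 5-library fit called 1. The shares were 23.5% and 17.6% with all libraries, against 10.9% and 12% of all genes. Without that library they were 17.6% and 29.4%, against 18.6% and 17.4%, and with the 5 libraries 5.88%, against 3.77%. With so few genes no balance between the directions can be read. Cbx3, a heterochromatin protein of the complex, stood at 24.6 and 24.9 FPKM in L3mbtl2 knockout against 9.21, 13.4 and 13 FPKM (-1.07 ± 0.15, limma's adjusted p = 0.00157 and, with the 5 libraries alone, 0.0529). Pcgf6, E2f6 and Max did not pass: E2f6 stood at 39.9, 31.7 and 31.5 FPKM against 27.8 and 28.7 FPKM, with 11 to 11.3 FPKM in wild type (0.27 ± 0.11, adjusted p = 0.122), and Pcgf6 at 30.7, 28.2 and 29.4 FPKM against 34.5 and 32.8 FPKM (-0.19 ± 0.07, adjusted p = 0.104). Klhl13, an adaptor of CUL3 ubiquitin ligases on chromosome X, was low in both, at 8.85, 8.67 and 10.2 FPKM against 4.02 and 3.77 FPKM, with 296 to 317 FPKM in wild type (1.22 ± 0.09, adjusted p = 6.54e-05).

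**Figure D3:**
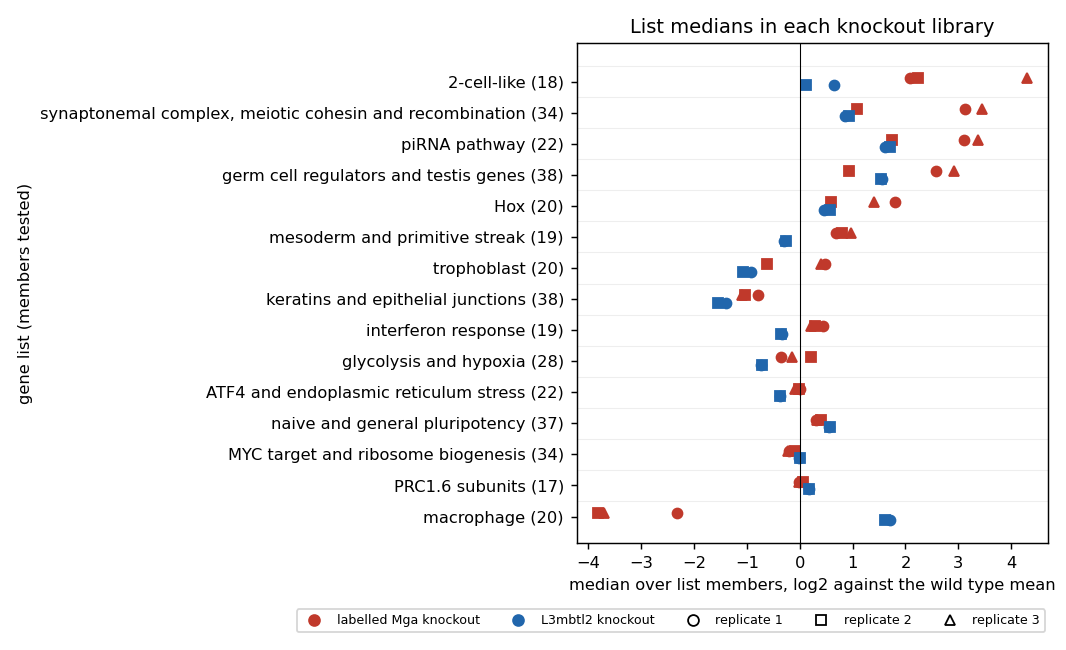
Median over the tested members of 15 gene lists in each knockout library (x axis, log2 against the wild type mean), with replicates marked by shape. Germ cell lists lie above 0 in all 5 libraries and highest in replicates 1 and 3 of Mga knockout, and the macrophage list lies below 0 in Mga knockout and above it in L3mbtl2 knockout.

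The largest differences higher in L3mbtl2 knockout were macrophage genes. Lyz2, the lysozyme of myeloid cells (ENSMUSG00000069516, chromosome 10, 117277331 to 117282321), stood at 315 and 305 FPKM in L3mbtl2 knockout, at 7.26, 0.196 and 0.197 FPKM in Mga knockout and at 93.3 to 96.3 FPKM in wild type (-8.49 ± 1.18, adjusted p = 0.00163). Ccl6, a chemokine, stood at 46.3 and 47.5 FPKM against 0.562, 0.046 and 0.162 FPKM (-7.32 ± 0.49, adjusted p = 5.08e-05). Pf4, platelet factor 4, stood at 19.8 and 18.8 FPKM, and Mga knockout gave 1 read in all, a ratio of read rates of 1020 (exact 95% interval 182 to 40200). Of 20 macrophage genes, 0 were higher in Mga knockout and 17 in L3mbtl2 knockout, with a median of -4.77, and the 5-library fit called 13. Leaving out the library labelled Mga knockout replicate 2 gave 0 and 18. The summed level of the list was 556 to 570 FPKM in L3mbtl2 knockout, 32.5 to 71.5 FPKM in Mga knockout and 209 to 215 FPKM in wild type. Tyrobp was listed at 0 in Mga knockout replicates 2 and 3. In bulk RNA, fewer cells of a type and less RNA per cell cannot be told apart. Whether macrophages were in the cultures, and their part in other differences, was not tested.

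Fibroblast genes, which feeder cells express, were highest in Mga knockout replicate 1. Col1a1, a collagen, stood at 123, 37.6 and 49.5 FPKM in Mga knockout against 18 and 18.4 FPKM, and 4 of 25 fibroblast genes passed, all higher in Mga knockout (0 in the 5-library fit, 7 leaving out the library labelled Mga knockout replicate 2). These are 16% and 28% of the list, against 10.9% and 18.6% of all genes. The fibroblast markers divided outside replicate 1. In replicates 2 and 3 of Mga knockout, Col1a1, Col1a2 and Col3a1 lay above L3mbtl2 knockout, Pdgfrb, Postn, Dcn and Lum lay below it, and Thy1 overlapped. Dcn, for one, stood at 54.2, 16.2 and 11.2 FPKM in Mga knockout against 50.5 and 48.4 FPKM. The summed level of the list was 367 to 1200 FPKM in Mga knockout, 512 to 522 FPKM in L3mbtl2 knockout and 429 to 436 FPKM in wild type. Their part in the mesoderm, Hox and interferon results was not tested. Y-linked genes separated the lines as well. Eif2s3y stood at 13.6 and 11.8 FPKM in L3mbtl2 knockout and 8.2 to 9.41 FPKM in wild type against 0.32, 0 and 0.1 FPKM in Mga knockout, and Ddx3y at 9.44 and 9.87 FPKM against 0.396, 0.0238 and 0.064 FPKM.

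**Figure D4:**
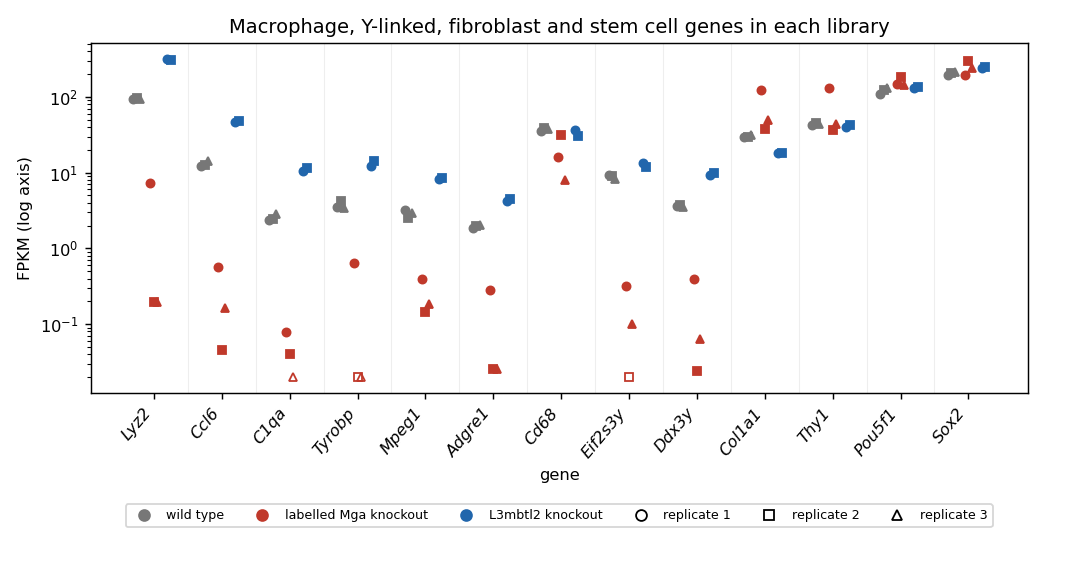
FPKM (log axis) of macrophage genes (Lyz2 to Cd68), Y-linked genes (Eif2s3y, Ddx3y), fibroblast genes (Col1a1, Thy1) and stem cell genes (Pou5f1, Sox2) in each library, with open symbols at 0 FPKM drawn at the bottom. Macrophage and Y-linked genes other than Cd68 lay lowest in Mga knockout and highest in L3mbtl2 knockout, and Col1a1 and Thy1 were highest in replicate 1 of Mga knockout.

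Whole chromosomes were shifted between the knockouts. The median difference was -0.47 over 904 genes of chromosome 1, -0.34 over 1352 of chromosome 11 and -0.22 over 476 of chromosome 16. On chromosome 1, 31.5% of genes were called higher in L3mbtl2 knockout, against 12% over all genes. Against the wild type mean, its median was 0.76 and 0.75 in the L3mbtl2 knockout libraries and 0.57, 0.11 and 0.23 in Mga knockout replicates 1 to 3. On chromosome 11 the medians were 0.10 and 0.13 in L3mbtl2 knockout and -0.11, -0.36 and -0.24 in Mga knockout. Without these 3 chromosomes 2556 of 12999 genes were called. On 4 further chromosomes replicate 1 of Mga knockout stood apart, with medians against wild type of 0.53 on chromosome 6, 0.52 on 12, 0.43 on 14 and 0.44 on 18. On these the other two Mga knockout libraries lay at 0.04 to 0.27 and the L3mbtl2 knockout libraries at 0.11 to 0.27. Among the genes named here, Tuba3a, Tuba3b, Gata2, Asns, Nanog, Cbx3, Rpl34-ps1 and Clec4n lie on chromosome 6. Tdrd9, Mycn, E2f6, Egln3 and Max lie on 12 and Klf5, Otx2 and Rps3a2 on 14. These lists may not be complete, and the part of these chromosome medians in the values of the genes was not tested. Whether copy number differed was not tested. Tex12, Hormad1, Syce1, Rnf212 and Lyz2 lie on other chromosomes. In contrast, Gbx2, Ncl and Wdr12, among others, lie on chromosome 1. Ccl6, Wfdc17, Xaf1, Col1a1, Npm1 and Ftsj3, among others, lie on 11, and Dppa2 and Tdgf1-ps1 on 16.

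**Figure D5:**
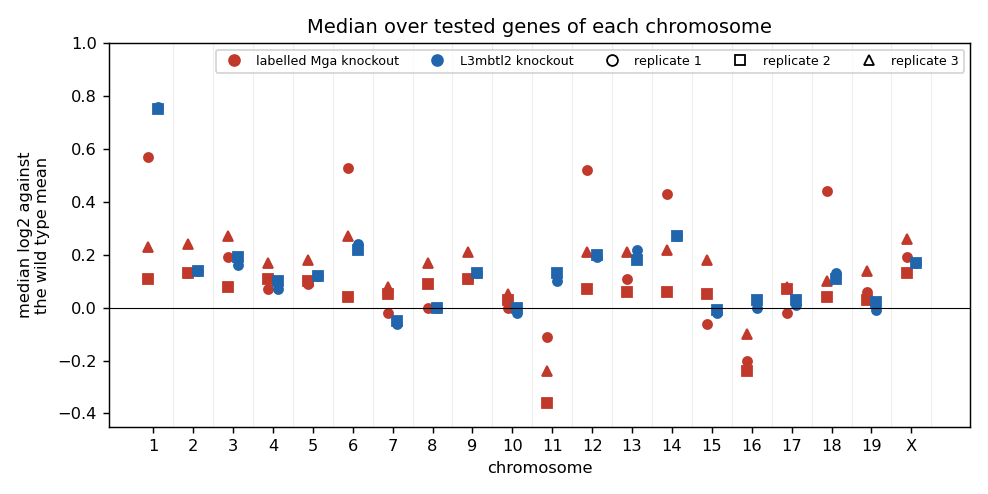
Median over the tested genes of each chromosome in each knockout library (y axis, log2 against the wild type mean), with replicates marked by shape. Of the chromosomes drawn (Y and the mitochondrial genome are not), chromosome 1 is highest in both L3mbtl2 knockout libraries at 0.76 and 0.75, and chromosomes 11 and 16 lie below 0 in all 3 libraries labelled Mga knockout.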

How the data were processed

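RNA of 10 libraries of mouse embryonic stem cells was sequenced, per the labels' protocols with an NEBNext Ultra kit, which does not mark strand, so a gene and its antisense partner cannot be told apart. The authors deposited FPKM per gene. Per the submitters' processing notes, Bowtie2 2.2.3, TopHat2 2.0.12, HTSeq 0.6.0 and GRCm38 were used, and no source used here gives the scaling. Of 30460 Ensembl identifiers 30250 matched GENCODE M21. The values moved in whole-read steps (77.9% of genes above 0 at the GENCODE exon length, within 0.005 of a read), which gave read counts and depths of 19.4 to 26.7 in units of 1e6 reads. Counting intervals and floors cover counting error only.

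Tested genes had 0.5 FPKM or more in 2 or more libraries. The test was limma 3.58.1 (R 4.3.3) on log2(FPKM + 0.1), group as the only term, all 10 libraries in the fit, Benjamini-Hochberg adjusted p under 0.05. Differences are on that scale, which understates low genes. No count model was the main test. The fit was tested on simulated data under 2 noise models. The first took each gene's own spread in each group, and the fit with all 10 libraries then made many false calls. The second, with a smoothed spread scaled per group, was written after that result, and the fit made few. Neither settles the error rate of that fit; the 5-library fit made few false calls under either model.

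Members, gene lists (34) and comparisons were chosen with earlier results of these data known. Named genes are the targeted genes with Pcgf6, E2f6 and Max, the 15 largest differences in each direction (adjusted p under 0.05, at least 5 FPKM in the higher group, no overlap, predicted models left out), up to 4 members of each list with the smallest adjusted p, and the 6 largest differences in each direction on opposite sides of wild type. Other genes named, such as Ddx4, Mael, Sycp1, Sycp3, Mei1, Stag3, Smc1b, Psmc3ip, Piwil4, Dazl, Nanog, Zcwpw1 and the parents of pseudogenes, were chosen after their values were seen, as were the motif counts of 3 gene lists and of the 15 largest differences. Promoters of 18 further genes were looked at and are not printed. Alternatives were other pseudocounts, filters, scalings, fits and left-out libraries.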

Additional observations from a re-analysis of the deposited data

Results flagged for a closer look

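The 12 genes given here are not all of their kind, but the 6 largest differences in each direction. For each, every library of one knockout lay above all wild type libraries and every library of the other below them. Mga knockout was above and L3mbtl2 knockout below for Rnf212, Hormad1, Mid1, Syce1, Prr23a2 and Otx2. The differences, Mga knockout minus L3mbtl2 knockout on the log2 scale, were 7.43 for Rnf212, 6.14 for Hormad1, 5.16 for Mid1, 4.66 for Syce1, 4.42 for Prr23a2 and 3.98 for Otx2. L3mbtl2 knockout was above and Mga knockout below for 6 genes of myeloid cells, with -8.49 for Lyz2, -7.38 for Pf4, -7.32 for Ccl6, -6.71 for Clec4n, -6.36 for C1qa and -6.18 for Wfdc17. The difference between the knockouts passed the limma test for each. These are the largest such differences by a fixed rule, and the opposite position against wild type was itself not tested. Rnf212 gave few reads outside Mga knockout, so its place below wild type in L3mbtl2 knockout rests on 3 reads.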

How the results depend on the processing

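The number of genes differing between the knockouts was 3591. It fell to 593 with only the 5 libraries in the fit, and to 1401 with those 5 less the library labelled Mga knockout replicate 2, a setting added after seeing the data. Leaving out 1 library gave 1192 to 5886: 5886 and 5672 without Mga knockout replicates 1 and 2, and 1192 and 1269 without L3mbtl2 knockout replicates 1 and 2, where the lone library is assumed to vary like the other groups. Other settings, from another pseudocount to limma-voom on recovered reads, gave 2471 to 3665. Replicate numbers 1 and 2 occur in both knockouts, and deviations of same-numbered libraries correlated at -0.00. With 2 L3mbtl2 knockout libraries the deviations mirror each other, and the Mga knockout libraries vary far more, so this check says little about pairing. Whether same-numbered libraries share a batch was not tested. With the replicate block 2512 passed. Of 139 named genes called, 76 were kept with the 5 libraries and 63 were not. The direction changed for 1 named gene, Max, which was not called: 0.16 on the log2 scale, and -0.06 to 0.27 with 1 library left out, the lowest without Mga knockout replicate 1. Depth does not allow a fold for genes with no reads beyond the bounds given.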
